A study of Homo sapiens with 3 samples.

Results

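The genes described here are the 6 ligands and 4 receptors of the VEGF and angiopoietin systems: VEGFA, VEGFB, VEGFC, PGF, ANGPT1 and ANGPT2, and the receptors FLT1, KDR, FLT4 and TEK. They were chosen by symbol, and all 10 were found among 27307 genes in the tables. For a gene with several transcript entries, the entry with the highest mean level was used. The data are RNA-seq of 3 replicate libraries of teratoma, the mixed-tissue tumour that pluripotent cells form, grown from H1, a widely used human embryonic stem cell line, with no genetic change named in the labels. SCID-beige mice, which lack a working adaptive immune system, received 1000000 cells subcutaneously, and tumours were taken after 3 to 4 weeks. All libraries form 1 group with no other condition, and separate tumours are not stated, so the spread between libraries may be technical. Host blood vessels grow into such tumours, and the labels do not say whether mouse reads were removed, so human and host transcripts could not be told apart.

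VEGF ligands are secreted proteins that make vessels sprout and become leaky. VEGFA acts mainly through KDR, the principal signalling receptor of endothelial cells, while FLT1 binds VEGFA, VEGFB and PGF tightly, signals weakly and also exists as secreted forms that trap ligand. VEGFC acts through FLT4, best known from lymphatic vessels. ANGPT1 is made by cells around vessels and activates TEK on endothelium to keep vessels quiet. ANGPT2, stored in endothelial cells, mostly opposes it.

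The ligands VEGFA, VEGFB and PGF had the most abundant transcripts. With the entries kept, VEGFC, ANGPT1 and ANGPT2 averaged less than the receptors KDR and FLT4. With the shorter FLT4 entry, VEGFC averaged more than FLT4. Levels are in RPKM, the deposited read density per kilobase of transcript and per 1000000 library reads, which allows genes of different length to be compared. The 6 ligands summed to 82.9, 74.6 and 81.4 RPKM in teratomas 1, 2 and 3, and the 4 receptors to 7.52, 9.95 and 2.33 RPKM. The ligand total thus differed little between libraries, whereas the receptor total was lowest in teratoma 3. VEGFA, the largest part of the ligand total, was highest there, while 5 of the 6 ligands were lowest there. Of genes averaging 0.5 RPKM or more, 39.2% were highest and 48.2% lowest in that library. Among the 5, VEGFB differed little between teratomas 2 and 3 (22.4 and 21.4 RPKM). In bulk tissue, fewer cells of a type and less RNA per cell cannot be told apart. Medians were 7.12, 5.1 and 2.32 RPKM for the ligands and 1.85, 1.95 and 0.526 RPKM for the receptors. On the log2(RPKM + 1) scale, which understates differences of low genes, the ligand median exceeded the receptor median by 1.36, 0.81 and 1.06, or 1.08 ± 0.28 (SD, n = 3 libraries), in 3 of 3 libraries. VEGFA and VEGFB carried most of the ligand total, with VEGFA at 55.8% ± 9.37 and VEGFB at 28.9% ± 2.29 of it. With 3 libraries, exact permutation of signs gives no two-sided p below 0.25, so that test cannot pass a threshold of 0.05, and the orders of levels are given as descriptions.

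**Figure D1:**
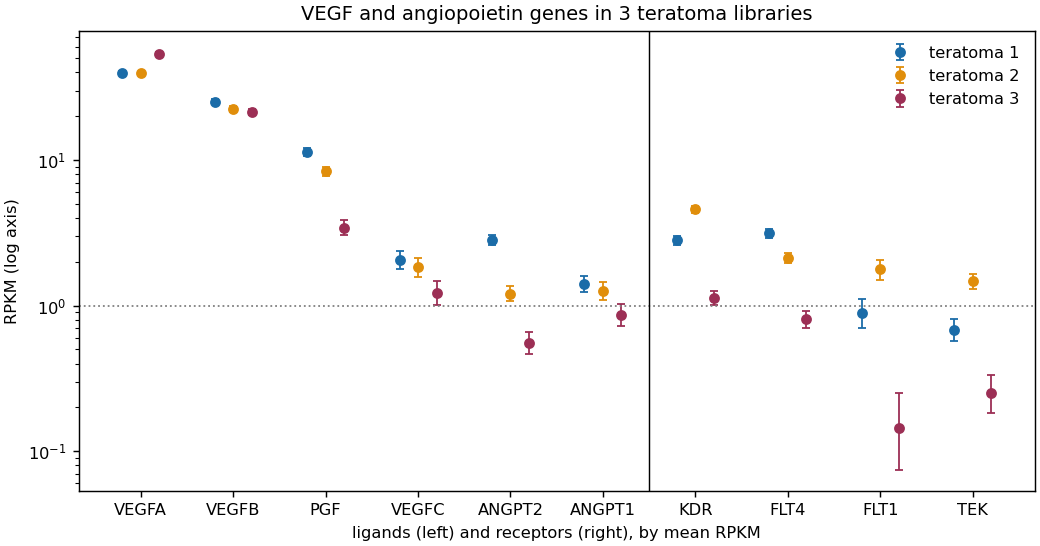
RPKM (log axis) of each ligand (left) and receptor (right) in the 3 libraries; points are libraries, bars are 95% exact Poisson counting intervals, and the dotted line marks 1 RPKM. VEGFA and VEGFB lie above 20 RPKM in each library, and teratoma 3 is the lowest point of the 3 for every gene but VEGFA.

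VEGFA, the main inducer of sprouting and a target of the hypoxia response, stood at 39.9, 39.5 and 53.9 RPKM. It was the only member highest in teratoma 3, and the counting intervals of teratomas 1 and 2 overlapped (38.9 to 40.9 and 38.6 to 40.5) while that of teratoma 3 lay above them (52.7 to 55.1). Its mean of 44.5 RPKM was above that of 96% of all genes. Among 12 hypoxia target genes 8 were highest in teratoma 3, against 39.2% of genes averaging 0.5 RPKM or more, such as PGK1, a glycolytic enzyme (44.3, 51.9 and 78.6 RPKM), and LDHA, lactate dehydrogenase (82, 97.9 and 114). VEGFA came to 13.3%, 10.1% and 12.8% of the summed RPKM of these 12 genes. The list was not of 1 pattern. The remaining 4 were highest in teratoma 2, namely SLC2A1, a glucose transporter (59.4, 82.3 and 67), NDRG1, a stress-response gene (38, 57.2 and 22.7), ADM, the vasodilator adrenomedullin (10.7, 16.5 and 10.5), and P4HA1, a collagen hydroxylase (16.9, 27.2 and 18), and NDRG1 was over 2 times lower in teratoma 3 than in the mean of the other two. The hypoxia regulators were all detected, with VHL, which marks HIF for degradation, at 39.6, 42 and 55.7 RPKM and EGLN2, an oxygen-sensing hydroxylase, at 41.4, 38.5 and 31.7.

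The VEGFA entries also bear on splicing. All 20 entries of the gene had means between 38.4 and 44.5 RPKM, since they share most of their reads. Entries that differ by a single cassette exon give the reads of that exon as a difference. The 72-base exon 6a and the 132-base exon 7 encode the basic stretches that bind heparan sulphate, and proteins that lack both diffuse freely. Both exons are printed because the split between forms rests on them; they come from GENCODE 29 transcripts on GRCh38, plus strand, at chr6:43780732-43780803 and chr6:43781956-43782087, whereas the deposited tables use hg19.
VEGFA exon 6a: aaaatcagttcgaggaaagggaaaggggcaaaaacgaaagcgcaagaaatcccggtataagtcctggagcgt
VEGFA exon 7: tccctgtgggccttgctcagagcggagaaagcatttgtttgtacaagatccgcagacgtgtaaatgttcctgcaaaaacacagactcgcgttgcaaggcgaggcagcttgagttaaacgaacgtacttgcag

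Exon 7 took more reads per length than the shorter exon 6a. Exon 7 took 182, 211 and 284 reads in teratomas 1, 2 and 3, where even coverage at the level of the entry lacking both exons would give 242, 237 and 308. Its density was thus 75.3%, 88.9% and 92.3% of that entry's RPKM (85.5% ± 8.99, SD, n = 3), with 95% counting intervals of 64.8 to 87.1%, 77.3 to 102% and 81.9 to 104%. Exon 6a took 8, 11 and 13 reads, where even coverage would give 132, 129 and 168. Its density was 6.07%, 8.5% and 7.75% of the same entry (7.44% ± 1.24), with intervals of 2.62 to 12%, 4.24 to 15.2% and 4.12 to 13.2%. The intervals of the 2 exons lay apart in each library, and those of the 3 libraries overlapped for each exon. Coverage along a transcript is uneven, and how reads across exon junctions were placed is not given in the sources used here, so these values are relative densities and not shares of molecules. Short stretches can take few reads. The VEGFA entries of 3406 bases held 6234, 6122 and 7939 reads, almost the same as those of 3376 bases (6234, 6116 and 7939). Whether the low density of exon 6a goes with its short length or with its use was not tested.

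VEGFB, a ligand of FLT1 linked to fatty acid uptake and cell survival rather than sprouting, stood at 25.2, 22.4 and 21.4 RPKM. It was the steadiest member, with an SD of 2.01 RPKM around a mean of 23. Teratoma 3 was lowest, but its counting interval (20.4 to 22.4) overlapped that of teratoma 2 (21.4 to 23.4), and under median-of-ratios scaling teratoma 2 was the lowest (22.19 against 22.22 in teratoma 3).

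PGF, placental growth factor, stood at 11.4, 8.37 and 3.43 RPKM. The 3 counting intervals lay apart (10.7 to 12.2, 7.77 to 9.01 and 3.03 to 3.85), and the mean of teratomas 1 and 2 was 2.89 times the level of teratoma 3. VEGFA exceeded PGF 3.49-fold, 4.72-fold and 15.7-fold in the 3 libraries, a difference of 2.49 ± 1.01 on the log2(RPKM + 1) scale. PGF is also a trophoblast product, and of 5 measured trophoblast markers CSH1, a placental hormone, had 0 reads in all libraries, CGA had 2, 2 and 0 reads, and GCM1 had 0, 0 and 5. VGLL1 (3.52, 2.03 and 0.717 RPKM) and HLA-G (2.25, 2.2 and 0.959) were the only 2 of them above 1 RPKM in any library.

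VEGFC, the lymphatic growth factor, stood at 2.05, 1.83 and 1.22 RPKM on 198, 175 and 111 reads. Teratomas 1 and 2 could not be told apart by their counting intervals (1.77 to 2.36 and 1.57 to 2.12), and that of teratoma 3 lay below both (1 to 1.47). VEGFD, the other ligand of FLT4, was nearly absent, with 10, 7 and 7 reads (0.104, 0.0737 and 0.0774 RPKM). ANGPT4, a further angiopoietin, had 6, 15 and 20 reads (0.0276, 0.0698 and 0.0977 RPKM).

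The angiopoietins were low and unlike each other in spread. ANGPT1 stood at 1.41, 1.26 and 0.859 RPKM, with overlapping intervals in teratomas 1 and 2 (1.24 to 1.61 and 1.09 to 1.45). ANGPT2 stood at 2.81, 1.21 and 0.558 RPKM, with 3 intervals that lay apart (2.61 to 3.03, 1.07 to 1.35 and 0.465 to 0.663). The balance between them therefore differed among the libraries. ANGPT1 over ANGPT2 was 0.502 in teratoma 1 (95% exact interval 0.431 to 0.584), 1.04 in teratoma 2 (0.87 to 1.25) and 1.54 in teratoma 3 (1.2 to 1.98). The difference averaged -0.12 ± 0.48 on the log2(RPKM + 1) scale (SD, n = 3), smaller than its spread, and became 0.15 without teratoma 1. ANGPT2 lies opposite MCPH1, whose exons overlap it in GENCODE 29 on GRCh38, and VEGFA shares exon sequence with a gene annotated as antisense. With the strand setting not given, reads of such partners could not be told apart, while the other 8 members have no exon shared with another gene there.

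KDR had the highest mean of the receptors, at 2.82, 4.58 and 1.13 RPKM on 790, 1270 and 299 reads. With the entries kept, it did not have the highest level in each library. FLT4 stood at 3.13, 2.13 and 0.803 RPKM, FLT1 at 0.883, 1.77 and 0.144, and TEK at 0.685, 1.47 and 0.249. The counting intervals of the 3 libraries lay apart for KDR (2.63 to 3.03, 4.33 to 4.84 and 1.01 to 1.27), FLT4 (2.93 to 3.35, 1.96 to 2.31 and 0.697 to 0.92), FLT1 (0.698 to 1.1, 1.5 to 2.07 and 0.0744 to 0.252) and TEK (0.575 to 0.809, 1.31 to 1.65 and 0.183 to 0.331). KDR, FLT1 and TEK were thus highest in teratoma 2 and lowest in teratoma 3, and FLT4 was highest in teratoma 1. The FLT1 value of teratoma 3 rests on 12 reads.

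KDR exceeded FLT1 3.2-fold, 2.59-fold and 7.86-fold per length, with intervals of 2.53 to 4.09, 2.19 to 3.08 and 4.44 to 15.4. On the log2(RPKM + 1) scale FLT1 lay below KDR by nearly the same amount in each library, with FLT1 minus KDR at -0.98 ± 0.07 (SD, n = 3). That steadiness depends on the scale, since the ratio itself moved, and the mean was -1.74 with a pseudocount of 0.1 RPKM. KDR over FLT4 was 0.9 (0.816 to 0.993), 2.15 (1.94 to 2.37) and 1.41 (1.18 to 1.69). With the entries kept, the leading VEGF receptor was thus FLT4 in teratoma 1 and KDR in teratomas 2 and 3. With the FLT4 entry of 4504 bases (2.35, 1.72 and 0.682 RPKM) KDR was the higher in each library. KDR over TEK was 4.12, 3.11 and 4.55, with intervals that overlapped among all 3 libraries (3.43 to 4.98, 2.73 to 3.54 and 3.33 to 6.32).

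FLT1 is the member whose level depends most on the transcript chosen. Its 4 entries, of 1911, 2968, 6499 and 7123 bases, had means of 0.932, 0.866, 0.862 and 0.611 RPKM. The longest encodes the full receptor with its kinase domain, and the other three encode shorter, secreted forms. The shortest entry gave 0.883, 1.77 and 0.144 RPKM, and the full-length entry 0.647, 0.999 and 0.187 RPKM on 213, 326 and 58 reads. The full-length entry was therefore the lowest of the 4 in teratomas 1 and 2, but not in teratoma 3. In GENCODE 29 the shortest form shares 1803 of its 1911 bases with the full-length form, so the 2 values are not independent. Taking the full-length entry changed FLT1 minus KDR to -1.18. FLT4 also had unequal entries, with 1.58 RPKM for the entry of 4504 bases and 2.02 for that of 5857, and the entries of TEK, of ANGPT1, of ANGPT2 and of PGF differed by at most 2.8%.

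**Figure D2:**
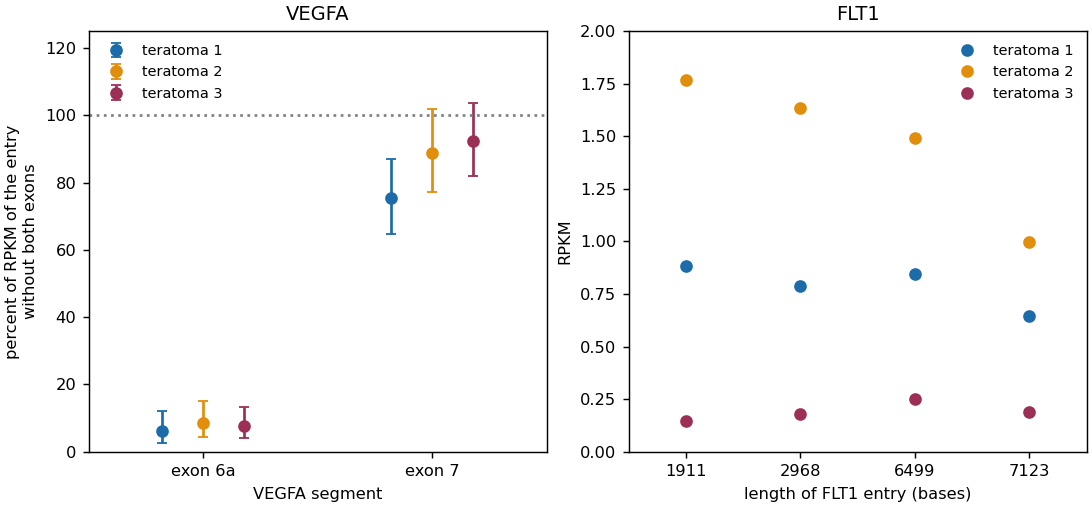
Left, read density of VEGFA exons 6a and 7 as a percentage of the RPKM of the entry lacking both, with 95% exact Poisson intervals; right, RPKM of the 4 FLT1 entries by length. Exon 7 lies between 75.3% and 92.3% and exon 6a between 6.07% and 8.5%, and the full-length FLT1 entry of 7123 bases is the lowest in teratomas 1 and 2.

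Set against their receptors, VEGFA was in excess in each library, while VEGFC was below FLT4 in teratoma 1 and above it in teratoma 3. VEGFA over KDR was 14.2, 8.64 and 47.6 per length, with intervals that lay apart (13.1 to 15.3, 8.13 to 9.18 and 42.4 to 53.6). PGF over FLT1 was 13 (10.3 to 16.5), 4.73 (3.97 to 5.66) and 23.8 (13.4 to 46.6). The ratio was thus lowest in teratoma 2, where FLT1 was highest. It used the shortest FLT1 entry (0.883, 1.77 and 0.144 RPKM), with 12 reads in teratoma 3. The full-length entry, at 0.647, 0.999 and 0.187 RPKM, would give a higher ratio in teratomas 1 and 2 and a lower one in teratoma 3. VEGFC over FLT4 was 0.654 (0.557 to 0.764), 0.858 (0.72 to 1.02) and 1.52 (1.19 to 1.92). ANGPT1 over TEK was 2.06 (1.66 to 2.57), 0.856 (0.712 to 1.03) and 3.45 (2.46 to 4.92). ANGPT2 over TEK was 4.11 (3.42 to 4.97), 0.819 (0.694 to 0.967) and 2.24 (1.59 to 3.2). These are ratios of transcripts in bulk tissue, and the cells that make ligand and receptor need not be the same.

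By mean level the order was VEGFA, VEGFB, PGF, KDR, FLT4, VEGFC, ANGPT2, ANGPT1, FLT1 and TEK. The first 3 kept their order in 3 of 3 libraries, without overlap between the ranges of VEGFA and VEGFB or of VEGFB and PGF. PGF exceeded KDR in each library by 4.9 ± 3.3 RPKM, though their ranges overlapped. From KDR downward each neighbour pair differed by less than the SD of its difference, and none kept its order in all 3 libraries. KDR exceeded FLT4, for example, by 0.821 ± 1.44 RPKM and FLT1 exceeded TEK by 0.13 ± 0.21.

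Detection, meaning at least 1 RPKM in all 3 libraries, was reached by 5 of the 10 members, against 52.7% of all genes. These were the ligands VEGFA, VEGFB, VEGFC and PGF and the receptor KDR. In teratoma 2 no member was under 1 RPKM, in teratoma 1 FLT1 and TEK were, and in teratoma 3 ANGPT1, ANGPT2, FLT1, FLT4 and TEK were. The count is therefore 8 without teratoma 3. It is also 8 at 0.5 RPKM.

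Most members were lower in teratoma 3. It was the lowest library for 9 of the 10, against 48.2% of the 17255 genes that averaged 0.5 RPKM or more, a class that holds all 10 members. VEGFA was highest there, as were 39.2% of those genes. The count was 8 under median-of-ratios scaling, where VEGFB left it. In 6 members, all 4 receptors with PGF and ANGPT2, the mean of teratomas 1 and 2 was at least 2 times the level of teratoma 3, against 15.5% of those genes. That ratio was 9.21 for FLT1, 4.33 for TEK, 3.61 for ANGPT2, 3.28 for FLT4, 3.27 for KDR and 2.89 for PGF. Single libraries decide its size for 3 of them: against teratoma 1 alone FLT1 was at 6.13 and TEK at 2.75, and against teratoma 2 alone ANGPT2 was at 2.16. The FLT1 ratio depends on the entry too. The kept entry stood at 0.883, 1.77 and 0.144 RPKM, and the full-length entry, at 0.647, 0.999 and 0.187, fell less in teratoma 3. For the other members the ratio was 1.59 for VEGFC, 1.56 for ANGPT1, 1.11 for VEGFB and 0.737 for VEGFA. On the log2(RPKM + 1) scale teratoma 3 minus the mean of the other two averaged -0.95 over the receptors and -0.44 over the ligands, beside a median of -0.06 over the same 17255 genes. The receptor value was -1.11 without teratoma 1 and -0.80 without teratoma 2. This sets 1 library against 2 of the same group, so it describes these libraries and not a condition.

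A difference of at least 1 on the log2(RPKM + 1) scale between the highest and lowest library was found for 5 members, PGF, ANGPT2, FLT1, KDR and FLT4. The share was 12.1% over all genes, 17.6% over detected genes and 19.0% over those averaging 0.5 RPKM or more. TEK, at 0.99, lay just under this size. Without teratoma 3 the count was 0, against 2.50% of genes between teratomas 1 and 2. Without teratoma 1 it was 3 (PGF, FLT1 and KDR) and without teratoma 2 it was 3 (PGF, ANGPT2 and FLT4). Between teratomas 1 and 2, counting intervals overlapped for VEGFA, VEGFC and ANGPT1 and lay apart for the other 7. KDR, FLT1 and TEK were 1.62, 2.01 and 2.15 times as high in teratoma 2 as in teratoma 1, while FLT4 and ANGPT2 were at 0.68 and 0.429 of the teratoma 1 level. The order teratoma 2, then 1, then 3, seen for those 3 receptors, was found in 16.5% of genes, and the order 1, 2, 3 of the other members except VEGFA in 31.7%.

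**Figure D3:**
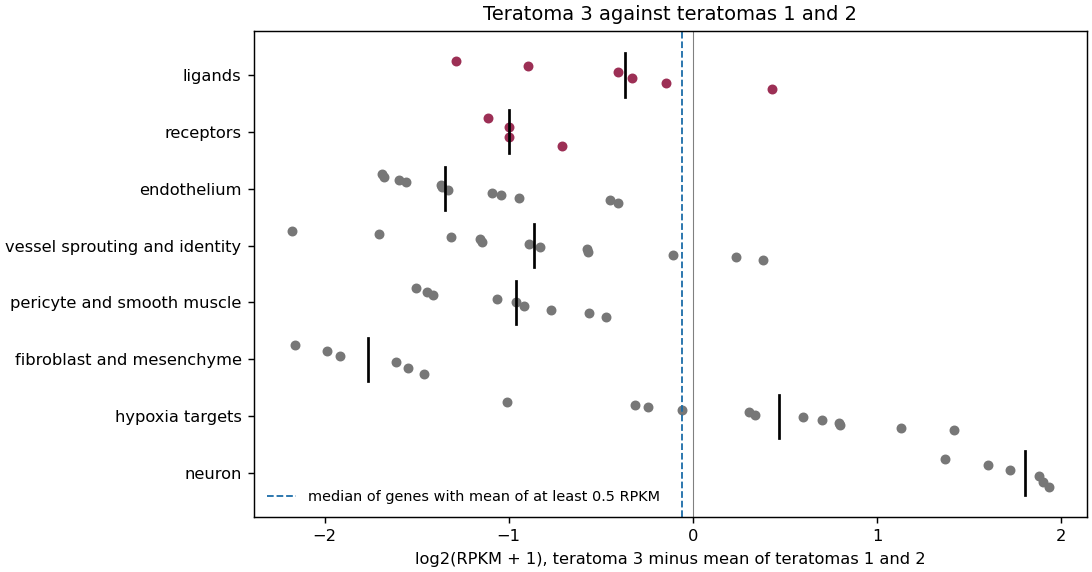
Each point is a gene, with its log2(RPKM + 1) in teratoma 3 minus the mean of teratomas 1 and 2 on the x axis and gene lists on the y axis; black bars are list medians and the dashed line is the median of genes averaging 0.5 RPKM or more (-0.06). The 4 receptors lie between -1.11 and -0.71, among the endothelium markers, and VEGFA, at 0.43, lies among the hypoxia targets.

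Markers of endothelium, like the receptors, were lowest in teratoma 3. Between teratomas 1 and 2 they differed, with a median teratoma 2 minus 1 shift on the log2(RPKM + 1) scale of 0.55 for the receptors and -0.03 for endothelium. All 12 fixed endothelium markers were above 0 in each library and lowest in teratoma 3, against 48.2% of genes averaging 0.5 RPKM or more. For all 12 the mean of teratomas 1 and 2 was at least 2 times the level there, against 15.5% of those genes. Only 4 of the 12 reached 1 RPKM in all 3 libraries. VWF (0.568, 0.724 and 0.241 RPKM) and EMCN (0.817, 0.246 and 0.103) stayed under 1 RPKM in each. The 12 markers summed to 62.6, 59.5 and 16.2 RPKM, with EGFL7 and CLDN5 having the highest means. EGFL7, a secreted endothelial factor, stood at 20.9, 20.9 and 7.49 RPKM, CLDN5, a tight junction protein, at 12.1, 10.3 and 2.79, and TIE1, the orphan partner of TEK, at 2.66, 3.11 and 0.512. The sum in teratoma 3 was 26.4% of the mean of the other two for endothelium and 26.6% for the 4 receptors. The receptor sum therefore made up 12%, 16.7% and 14.4% of the endothelium sum (14.4% ± 2.36, SD, n = 3), a smaller spread relative to its mean than that of either sum (6.6 ± 3.9 RPKM for the receptors and 46.1 ± 26 for endothelium). A list that also falls in teratoma 3, such as the fibroblast markers (sums of 1641, 1288 and 362 RPKM), can narrow such a spread too. The smaller spread thus does not single out endothelium.

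**Figure D4:**
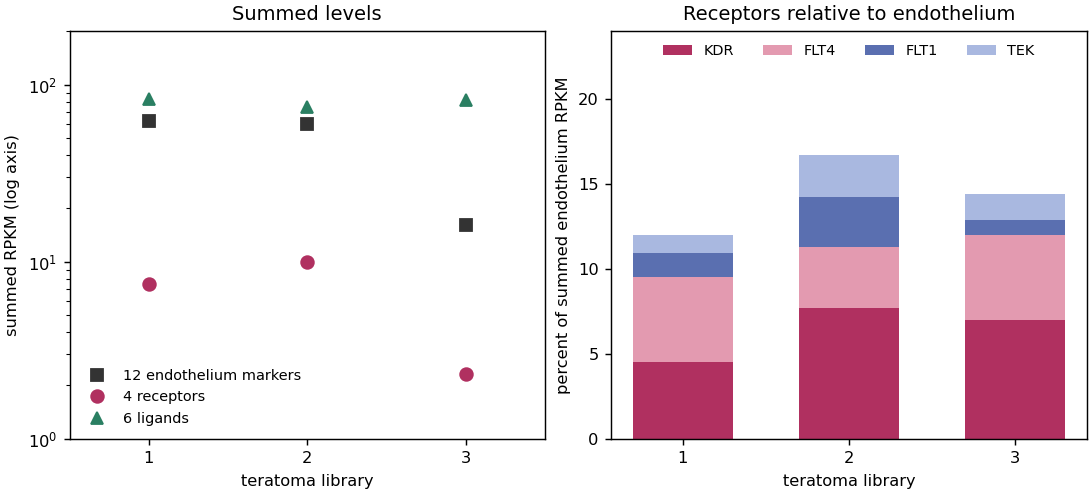
Left, summed RPKM (log axis) of the 6 ligands, 4 receptors and 12 endothelium markers in each library; right, each receptor as a percentage of the summed endothelium RPKM, stacked. The receptor and endothelium sums are both lowest in teratoma 3 (2.33 and 16.2 RPKM). The ligand sum is not (81.4), with VEGFA as its largest part, though 5 of the 6 ligands are lowest there, against 48.2% of genes averaging 0.5 RPKM or more. The stacked share lies between 12% and 16.7%.

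The single receptors tracked endothelium unequally. KDR came to 4.5%, 7.69% and 7.01% of the endothelium sum and FLT4 to 5%, 3.58% and 4.97%. FLT1 came to 1.41%, 2.97% and 0.892%, and TEK to 1.09%, 2.47% and 1.54%. FLT4 varied least relative to its mean (4.52% ± 0.811) and FLT1 most (1.76% ± 1.08). Among ligands, PGF came to 18.2%, 14.1% and 21.2% of that sum and ANGPT2 to 4.49%, 2.03% and 3.45%. VEGFC, at 3.27%, 3.07% and 7.54%, was higher against endothelium in teratoma 3, as was ANGPT1 against the summed pericyte markers, at 0.915%, 0.863% and 1.29%.

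Endothelium markers were not the only cell type markers that were lower in teratoma 3. Of genes averaging 0.5 RPKM or more, 48.2% were lowest and 39.2% highest in that library. All 9 pericyte and smooth muscle markers were lowest there, with a sum at 44.5% of the other two, led by NOTCH3 (56, 46 and 29.4 RPKM) and TAGLN (40.5, 37.4 and 13.7). All 6 fibroblast and mesenchyme markers were lowest as well, at 24.7%, led by COL1A1 (699, 475 and 128) and COL3A1 (427, 443 and 114). All 6 neuron markers were highest in teratoma 3, at 296% of the other two, led by TUBB3 (435, 510 and 1216) and STMN2 (103, 137 and 440). Of 6 myeloid markers 5 were lowest in teratoma 3, led by CD68 (7.19, 10.2 and 3.45) and AIF1 (2.25, 1.56 and 0.795), and the pan-leukocyte gene PTPRC was at 0.0656, 0.128 and 0.0788 RPKM. CD14 (0.793, 0.672 and 0.39) and CX3CR1 (0.271, 0.309 and 0.236) also stayed under 1 RPKM. In the lymphatic list LYVE1, a hyaluronan receptor, had 84, 67 and 22 reads and the chemokine CCL21 67, 25 and 2, while PDPN (12.3, 19.7 and 12) and PROX1 (3.3, 3.12 and 3.65), both made by other tissues too, did not share that order. The part of each of these cell types in the levels of the 10 genes was not tested.

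Likeness over the libraries was measured as the summed absolute difference of log2 deviations from each gene's own mean, among 44 marker and vessel genes averaging 1 RPKM or more. With 3 libraries many genes fit, so this is a description only. FLT1 was nearest to ROBO4 (1.04) and PECAM1 (1.1), both endothelial surface proteins. KDR was nearest to ACTA2 (0.284) and RGS5 (0.286), of smooth muscle and pericytes. TEK was nearest to ACTA2 (0.488) and APLNR (0.719), the apelin receptor, and FLT4 to PDGFRA (0.231) and EPHB4 (0.252). NEFL, a neurofilament, was the farthest of the 44 from each receptor.

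The other genes of the pathway varied in how they stood in teratoma 3. TIE1, given above, was 5.64 times lower there than in the mean of the other two. The co-receptors NRP1 and NRP2, which neurons also use for semaphorins, stood at 14.9, 13 and 14.2 RPKM and 19.3, 21.1 and 32.3 RPKM. PTPRB, the phosphatase that restrains TEK, stood at 0.428, 0.425 and 0.27 RPKM. Of 14 downstream signalling genes 13 were detected, against 52.7% of all genes. Only 1, DOK2, was at least 2 times lower in teratoma 3, against 15.5% of genes averaging 0.5 RPKM or more. DOK2 was the gene not detected, at 0.428, 0.139 and 0.0973 RPKM on 28, 9 and 6 reads, so its call rests on teratoma 1. AKT1, a kinase of survival signalling, stood at 71.9, 67.7 and 67.2 RPKM. Of 12 genes of vessel sprouting and of arterial or venous identity 8 were at least 2 times lower in teratoma 3, against the 15.5% of genes given above. EPHB4, a venous receptor, stood at 47.2, 36.6 and 12.1 RPKM, and ESM1, a tip cell product, at 2.57, 2.06 and 0.331. NR2F2, a venous regulator that other tissues also make, did not follow (58, 47.7 and 62). Of 9 genes for secreted inhibitors 4 were at least 2 times lower in teratoma 3, among them THBS1, thrombospondin 1 (14, 12.2 and 2.9 RPKM). VASH1, at 22, 19.2 and 27.1, and SEMA3F, at 23.9, 18.2 and 13.3, led that list and were not.

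The promoters of the receptors that shared the order teratoma 2, 1, 3 are shown as the 250 bases before the start site, from RefSeq on GRCh38.p14. They lie at chr4:55125596-55125845 (minus strand) for KDR, chr13:28495129-28495378 (minus) for FLT1 and chr9:27108975-27109224 (plus) for TEK, whose first of 2 listed start sites was taken. Of the 10 members 6 matched the table. Capitals mark GGAA or its reverse complement TTCC, the core bound by ETS factors, a family that includes regulators of endothelial genes.
KDR promoter: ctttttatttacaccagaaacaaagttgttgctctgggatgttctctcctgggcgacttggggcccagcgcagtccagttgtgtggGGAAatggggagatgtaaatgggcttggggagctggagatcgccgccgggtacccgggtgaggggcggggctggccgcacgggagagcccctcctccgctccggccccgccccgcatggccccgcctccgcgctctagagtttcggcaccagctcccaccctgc
FLT1 promoter: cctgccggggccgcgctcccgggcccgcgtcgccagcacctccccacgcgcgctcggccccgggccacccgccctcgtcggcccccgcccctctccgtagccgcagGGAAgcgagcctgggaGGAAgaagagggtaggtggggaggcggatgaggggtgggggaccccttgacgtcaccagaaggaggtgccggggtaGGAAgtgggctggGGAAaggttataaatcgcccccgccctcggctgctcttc
TEK promoter: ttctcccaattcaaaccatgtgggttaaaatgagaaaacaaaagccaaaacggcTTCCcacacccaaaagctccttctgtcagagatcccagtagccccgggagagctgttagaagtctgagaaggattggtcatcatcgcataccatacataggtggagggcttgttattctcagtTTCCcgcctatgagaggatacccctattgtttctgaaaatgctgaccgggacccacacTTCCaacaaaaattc

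KDR held 1 such match, FLT1 4 and TEK 3. The TEK count depends on the start site, since the window of its second site held 6. The core is common, since 92.7% of all 35116 promoter windows of this length held it, with a median of 3 matches, so holding it is usual for a promoter. The windows differed in composition, with a GC content of 65.2% for KDR, 73.2% for FLT1 and 46.4% for TEK.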

How the data were processed

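Polyadenylated RNA of 3 teratoma libraries was measured. Bowtie2 and hg19 are named in the submitters' processing notes; the version, counting tool, strand setting and handling of mouse reads were not given in the sources used here. The deposited RPKM values are the authors', and equal the deposited read counts divided by entry length and by 1 total per library (46243199, 45815401 and 43605459 reads, as recovered from the values). The counts are the authors' raw reads per RefSeq entry, with shared exons counted in several entries. Of 59443 entries, the one with the highest mean RPKM was kept per symbol.

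The libraries form 1 group, and p-values were not computed. Intervals (95%, exact Poisson; exact binomial for ratios) cover counting error only. Differences used log2(RPKM + 1), with a pseudocount of 1 RPKM. GENCODE 29 and RefSeq on GRCh38 gave exon structure, sequences and overlaps, and no coordinate was moved between builds. The exon densities are differences of the counts of 2 entries. Members, 13 gene lists and tests were chosen with earlier results of these data known. Named were all members, the leading genes of each list, the nearest genes to each receptor and markers a result turned on; ESM1, DOK2, TIE1, PGK1, NDRG1, ADM, P4HA1, CCL21 and THBS1 were chosen after their values were seen. ERVW-1 did not match by symbol, and FIGF is the older symbol of VEGFD, which matched. A leading gene of the downstream signalling list is not reported here. Alternatives covered entry choice, scaling, pseudocount, filters, thresholds and each library left out. Range calls and intervals were tested on simulated data with counting noise only. Changes were planted only in genes with means above those of most members, and were larger than the size called here. Calls of smaller changes or at lower levels were therefore not tested. Tools were Python 3.11.15, numpy 2.4.6, pandas 2.3.3, scipy 1.17.1 and matplotlib 3.10.9.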

Additional observations from a re-analysis of the deposited data

How the results depend on the processing

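Summing the entries of a gene, which counts shared reads repeatedly, gave a ligand minus receptor level of 1.64, 8 members detected, receptors in teratoma 3 at -1.27, a receptor to endothelium ratio of 0.101, VEGFA minus PGF of 5.32 and FLT1 minus KDR of 0.05, a change of sign for a gene with 4 entries against 1. Rescaling to 1000000 per library, which raised all values by 1.75, 1.80 and 1.86 (log2), gave 1.41 for ligands minus receptors, 8 detected, -1.44 for receptors in teratoma 3 and -1.46 for FLT1 minus KDR. With the longest entry the receptor to endothelium ratio was 0.173 and FLT1 minus KDR -1.18, as with the full-length FLT1 entry alone, an alternative added after the data were seen. A pseudocount of 0.1 RPKM gave 1.57, -1.83 and -1.74 for ligands minus receptors, receptors in teratoma 3 and FLT1 minus KDR. With a mean of at least 1 RPKM, which drops FLT1 and TEK, ligands minus receptors was 0.59, and FLT1 minus KDR had no value; with means over members it was 1.56. Detection at 0.5, 2 and 5 RPKM gave 8, 3 and 2 members, and 0 members differed by at least 2 (log2).

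With each library left out in turn, ligands minus receptors ranged from 0.93 to 1.21, members detected from 5 to 8, members differing from 0 to 3, receptors in teratoma 3 from -1.11 to -0.80, the receptor to endothelium ratio from 0.132 to 0.156, FLT1 minus KDR from -1.02 to -0.95, ANGPT1 minus ANGPT2 from -0.31 to 0.15 (the change of sign is without teratoma 1) and VEGFA minus PGF from 1.92 to 2.87. The cause was not tested. The counts of members lowest (8 to 9) and at least 2 times lower (6) in teratoma 3, added after the data were seen, held under each scaling and entry choice. No paired analysis was possible because the libraries form 1 group. Depth limits FLT1 in teratoma 3 (12 reads) and VEGFA exon 6a (8 to 13 reads).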
